A study of Drosophila melanogaster with 20 samples.

Results

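Surface glia of the adult Drosophila melanogaster brain were compared with neurons on single-channel Affymetrix arrays, 5 arrays against 5 of the 20 in the series. The genes described were taken from 14 lists of barrier functions and 15 lists of neuronal functions. The lists were written by role, but with earlier results of these data known, so they are not independent of the differences. A gene entered a count where its probe set exceeded the 95th percentile of 44 negative control probe sets on at least 3 of the 5 arrays of at least 1 of the cell types. Of 11982 genes with a probe set of a single symbol, 8752 met this, 7677 of them in surface glia and 8426 in neurons. They included 301 of the 351 barrier genes and 474 of the 512 neuronal genes on the array, and 4 further genes that belong to lists of both kinds were counted in neither total. The surface glia were GFP-positive cells sorted from flies of the 9.137 line, and the neurons were GFP-positive cells sorted from Elav flies. The 9.137 driver is known to be active in both glial layers of the brain surface, which are not separated here. Each replicate pooled 10 to 15 adult brains of males and females together, and the replicates came from separate growth bottles on separate days. Brains of both lines were digested with collagenase and DNase at 37 °C, for 5 min at 500 rpm for surface glia and for 20 min at 1000 rpm for neurons. The driver line, the dissociation and the cell type therefore cannot be told apart. The other 10 arrays of the series were of whole brain from wild-type Canton S flies, a strain other than the sorted lines, and of sorted REPO glia. These 10 arrays helped set the spread of each probe set in the fit and the choice of a probe set for each gene. Their means took no part in the differences, and whole brain is otherwise used below as a reference for level.

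The surface of the fly brain is covered by perineurial glia and, beneath them, flat subperineurial glia that form the blood-brain barrier. Subperineurial glia are sealed by septate junctions, are organised by the G protein-coupled receptor moody, and carry efflux pumps and nutrient carriers, while a collagen-rich matrix lies over the perineurial layer. Neurons are defined by synaptic release machinery, receptors, voltage-gated channels and cell surface recognition proteins.

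Levels are log2 array values and differences are surface glia minus neurons on the same scale, so that a difference of 1 is a ratio of 2. Errors are the SD over 5 arrays for a level and the SE of the limma fit for a difference. That fit estimated the spread of a probe set over all 4 groups of the series. An SE can therefore be larger or smaller than the spread of surface glia and neurons alone would give. A gene was called, and is described as having risen or fallen, where its Benjamini-Hochberg adjusted p was under 0.05 and its difference at least 1. Where a gene stayed within the negative controls on all arrays of a cell type, its difference is given as a lower bound. Where only the mean of a cell type lay under the mean control percentile, 5.23 in surface glia and 4.39 in neurons, the size of the difference is uncertain. Among markers and genes named by the rule below, this held in neurons for moody, Mdr65, CG6126, CG3168, if, htl, apt, Ets98B, nAChRbeta3, GluRIIA and Clk. It held in surface glia for sinu, loh, Ets98B, VGlut, mAChR-C, TyrR, dpr2 and Ptx1. In RNA from bulk samples, fewer cells of a type and less RNA per cell cannot be told apart.

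The barrier markers had levels far above those in neurons. moody had log2 levels of 10.87, 10.47, 11.41, 11.80 and 11.27 in surface glia and 2.83, 4.82, 3.83, 6.09 and 3.30 in neurons. Indy, a citrate carrier, had log2 levels of 12.50, 12.35, 12.97, 12.16 and 12.28 in surface glia and 2.85, 2.84, 3.33, 2.69 and 3.0 in neurons, and the log2 difference was at least 8.06. Mdr65, an ABC efflux pump, had log2 levels of 12.67, 12.50, 12.97, 12.54 and 12.01 in surface glia and 4.51, 3.90, 4.37, 4.48 and 4.31 in neurons. No array overlapped between the cell types for any of the 3 genes. The glial transcription factor repo was read at 10.48, 11.34, 10.76, 10.60 and 10.14 in surface glia and 6.38, 4.30, 5.57, 6.63 and 5.21 in neurons, also without overlap. The neuronal markers were abundant on the arrays of both cell types. elav, an RNA-binding protein of neurons, had log2 levels of 12.72, 12.70, 11.43, 11.25 and 12 in surface glia and 13.14, 13.15, 13.11, 12.97 and 12.84 in neurons. nSyb, the synaptic vesicle SNARE, had log2 levels of 13.20, 13.08, 12.81, 12.83 and 12.56 in surface glia and 13.52, 13.49, 13.44, 13.32 and 13.57 in neurons. brp, the active zone scaffold, had log2 levels of 12.93, 12.75, 12.08, 11.21 and 12.47 in surface glia and 13.14, 13.06, 13.08, 13.08 and 13.13 in neurons. All surface glia arrays were below all neuron arrays for the 3 genes, with gaps of 0.12, 0.12 and 0.13 log2 units between the nearest arrays. elav fell by 1.02 ± 0.26 (adjusted p = 0.00648), and this call was lost without surface glia replicate 3 (-0.87) or 4 (-0.83), without neuron replicate 1 (-1.0) or 2 (-0.99), and after a further quantile normalization (-0.95). The log2 difference of nSyb was -0.57 ± 0.15 (adjusted p = 0.00646) and that of brp was -0.81 ± 0.23 (adjusted p = 0.0114), both under the minimum of 1, and the other 3 probe sets of brp gave differences of -1.12, -0.39 and -0.12. These pan-neuronal genes were thus at high levels in the surface glia sort. The part of this in the differences of the neuronal lists below was not tested.

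**Figure D1:**
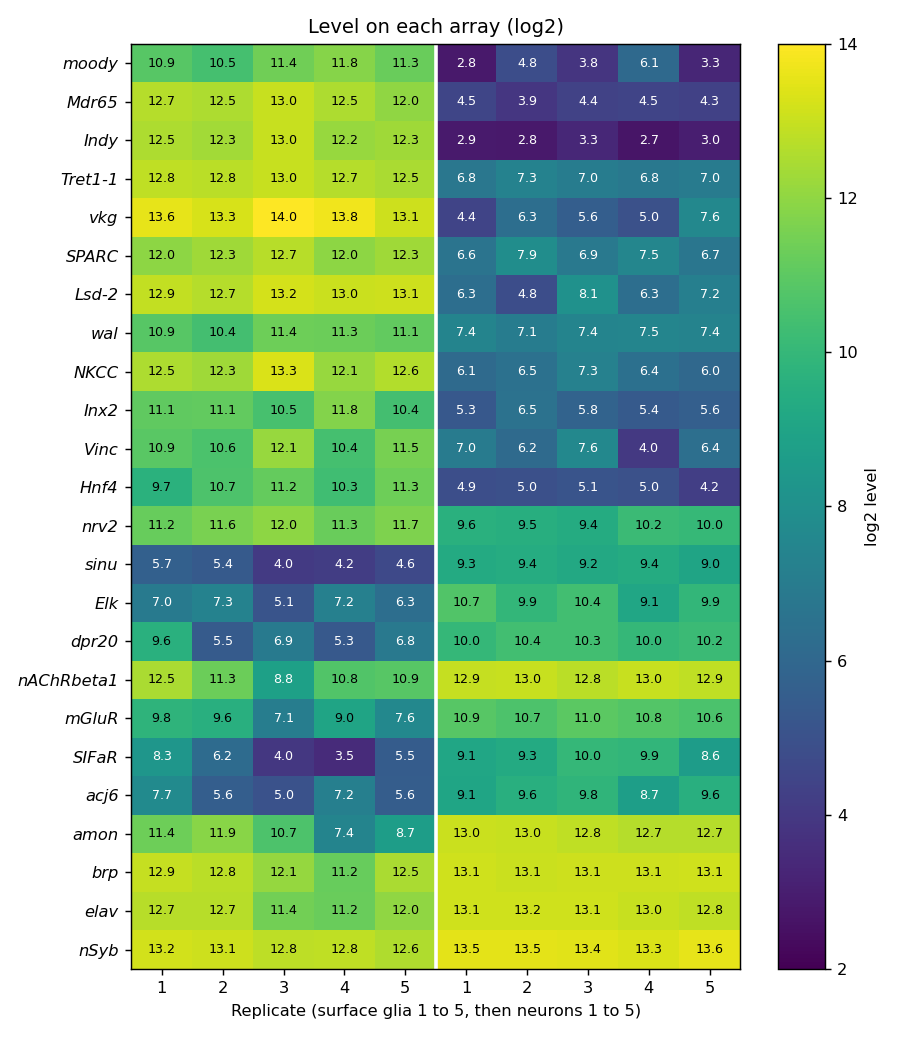
Log2 level of 24 genes (rows) on each of the 5 surface glia and 5 neuron arrays (columns), with the value written in each cell and its colour on the scale at the right. The genes in the upper rows, down to nrv2, are of barrier lists except NKCC, which is of a neuronal list. They are higher on every surface glia array than on any neuron array, while brp, elav and nSyb in the bottom rows are high on both. Apart from the markers, genes were named only where their arrays did not overlap.

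The surface glia arrays varied more than the neuron arrays. Their mean correlation with the other arrays of their group ran from 0.785 in replicate 4 to 0.843 in replicate 1, against 0.969 to 0.976 among neurons, and the median SD per probe set was 0.58 against 0.27. The median of the negative controls was 3.96 in surface glia and 3.15 in neurons, the differences of the single control probe sets had a median of 0.66, and the median difference over all 18769 probe sets was 0.36. Centring each array on its median moved the differences by -0.14, and a further quantile normalization moved their median by -0.22. Over all probe sets, 1963 were higher in surface glia (10.5%) and 2816 were lower (15.0%), and with each array centred they were 1351 and 3108. Without surface glia replicate 4, the array that stood farthest from its group, these were 1446 and 2345.

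Pooled over all barrier lists more genes rose than fell, and pooled over all neuronal lists more fell than rose. By median, the septate junction list (-1.06) and the neuropeptide list (0.31) ran against their pools. Among the 8752 genes above the controls, 1078 rose (12.3%) and 1946 fell (22.2%), with a median log2 difference of -0.20. Among the 301 barrier genes, 129 rose (42.9%) and 43 fell (14.3%), with a median of 0.67. Of the 474 neuronal genes, 26 rose (5.49%) and 223 fell (47.0%), with a median of -1.08. A gene above the controls in a single cell type is bound to differ, so these counts describe the lists and are not a test of them. With no filter on level the counts were 136 and 43 for the barrier genes and 28 and 223 for the neuronal genes. The mean log2 level of the 301 barrier genes on the surface glia arrays was 8.66, 8.53, 8.87, 8.23 and 8.60, against 7.35, 7.41, 7.37, 7.43 and 7.31 on the neuron arrays. That of the 474 neuronal genes was 8.94, 8.71, 8.02, 7.65 and 8.09 in surface glia and 9.34, 9.32, 9.35, 9.26 and 9.14 in neurons. Neither set overlapped between the cell types, and the neuronal genes varied most among the surface glia arrays, with replicate 4 lowest. For single genes, the 10 arrays did not overlap in 2540 of the 8752 (29.0%). Apart from the fixed markers, the genes named by rule in each list below were chosen among these. Their lack of overlap is thus a condition of being named and not a result.

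**Figure D2:**
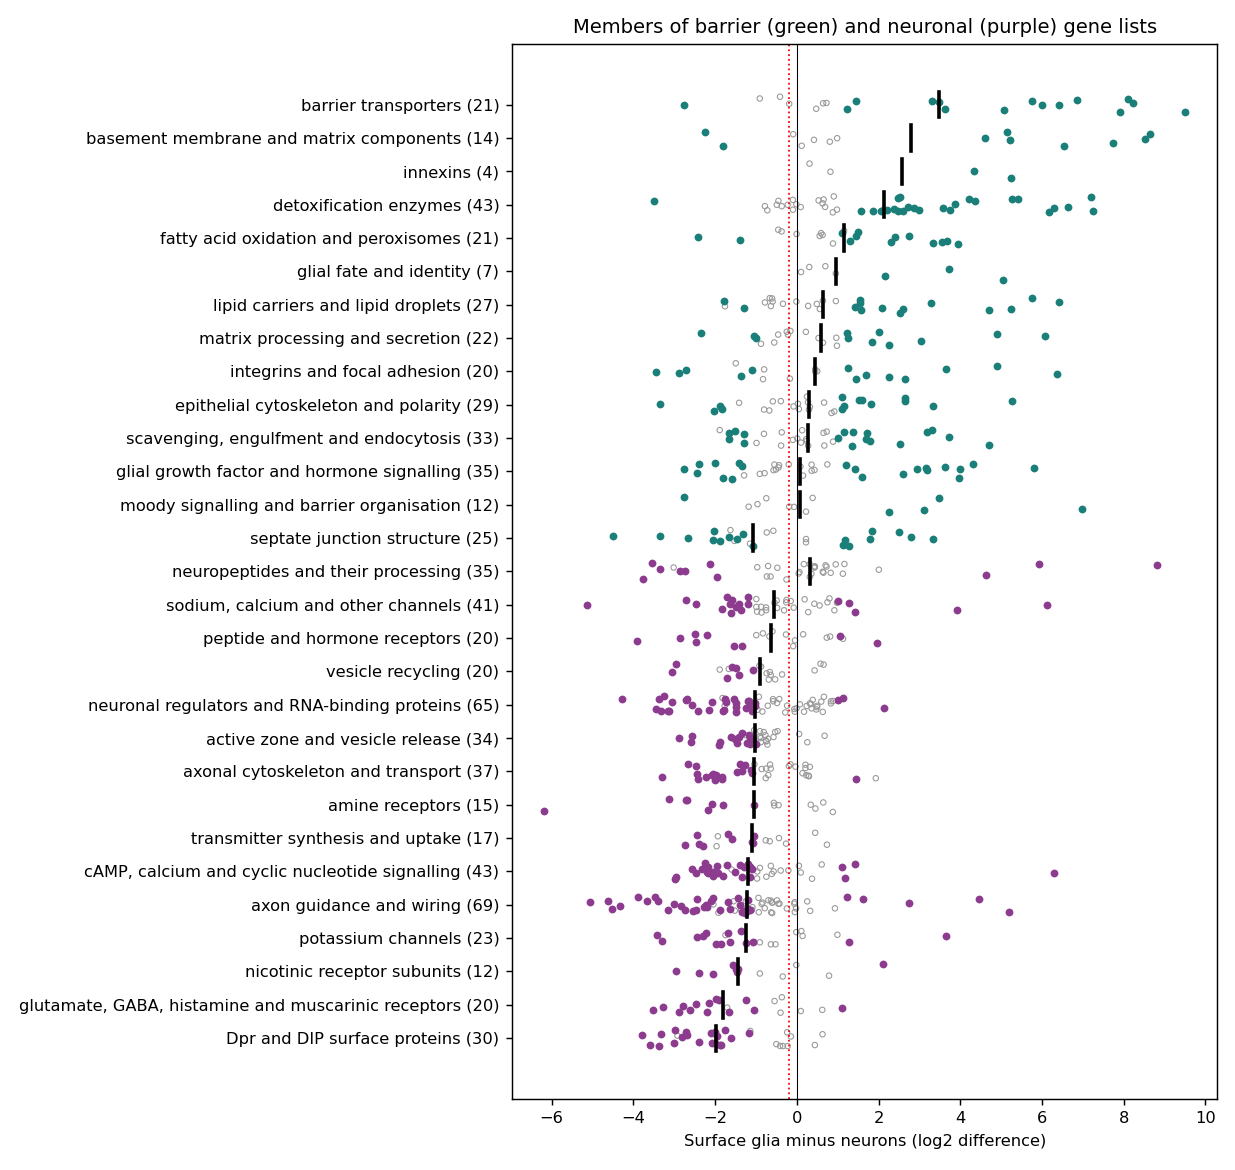
Log2 difference, surface glia minus neurons (x axis), of each gene above the controls in the 14 barrier lists (green) and 15 neuronal lists (purple), with the number of genes in parentheses. Filled points are called genes, open points are not, the black bar is the list median and the dotted line is the median of all 8752 genes, -0.20. Barrier transporters have the highest median, 3.48, and the Dpr and DIP surface proteins the lowest, -1.98.

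Of the 12 genes of moody signalling and barrier organisation above the controls, 4 rose and 1 fell. The median difference of 0.08 turned to -0.06 when each array was centred on its median and was 0.30 after a further quantile normalization. moody rose by 6.99 ± 0.79 log2 units (adjusted p = 2.89e-06). loco, the RGS protein that limits G protein signalling, was at 10.78 ± 1.21 in surface glia and 7.67 ± 0.25 in neurons and rose by 3.12 ± 0.40 (adjusted p = 1.34e-05). Galphai, a G protein alpha subunit, was at 8.85 ± 1.33 in surface glia and 5.36 ± 0.69 in neurons and rose by 3.49 ± 0.62 (adjusted p = 0.000484). Galphao, the other alpha subunit linked to moody, was abundant in both cell types, at 12.73 ± 0.42 in surface glia and 13.47 ± 0.12 in neurons, and its log2 difference of -0.75 ± 0.18 stayed under the minimum. The remaining calls, named for their small number after their values were seen, were AdamTS-A, a secreted metalloprotease, which rose by 2.26 ± 0.41, and the arrestin krz, which fell by 2.76 ± 0.81 and whose arrays overlapped.

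Carriers and efflux pumps had the highest median difference of the 29 lists. Of 21 barrier transporters above the controls, out of 28 on the array, 14 rose (66.7%) and 1 fell, with a median of 3.48. CG6126, a carrier of the major facilitator superfamily, had log2 levels of 12.06, 12.13, 12.85, 12.53 and 11.98 in surface glia and 3.55, 3.63, 4.95, 4.63 and 4.29 in neurons. The lowest surface glia array lay 7.03 log2 units above the highest neuron array, and CG6126 rose by 8.10 ± 0.31 (adjusted p = 5.21e-13). The trehalose carrier Tret1-1 was at 12.74 ± 0.19 in surface glia and 6.98 ± 0.21 in neurons and rose by 5.76 ± 0.22 (adjusted p = 5.25e-13). CG3168, also of the major facilitator superfamily, was at 12.14 ± 0.41 in surface glia and 4.22 ± 0.21 in neurons and rose by 7.92 ± 0.50 (adjusted p = 9.31e-10). Indy and Mdr65, described above, belong to the same list. Other risen carriers, named as examples after their values were seen, included the organic anion carrier Oatp58Dc at 1.23 and the sugar carrier pippin at 6.86. Not all carriers followed. MRP, an ABC transporter, was at 11.34 ± 0.21 in surface glia and 10.70 ± 0.11 in neurons, a log2 difference of 0.64 ± 0.43 (adjusted p = 0.209). The SD of MRP in REPO glia, which enters this SE, was 1.41. Oatp30B, an organic anion carrier, was the single member that fell, with a difference of -2.75 ± 0.60 and overlapping arrays.

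Septate junction genes did not move together. Of 25 genes above the controls, 8 rose and 10 fell, with a median of -1.06. The claudin-family gene sinu had log2 levels of 5.67, 5.39, 4.05, 4.16 and 4.63 in surface glia and 9.34, 9.42, 9.24, 9.39 and 9.01 in neurons. Every surface glia array was at least 3.34 log2 units below every neuron array, and sinu fell by 4.5 ± 0.34 (adjusted p = 1.1e-08). Its surface glia mean of 4.78 lay under the mean control percentile of 5.23, so the size of this fall is uncertain. kune, another claudin-family gene, was at 5.53 ± 0.64 in surface glia and 7.00 ± 0.28 in neurons and fell by 1.47 ± 0.25 (adjusted p = 0.000342). mesh, a protein of smooth septate junctions in the gut, was at 5.82 ± 0.73 in surface glia and 8.49 ± 0.39 in neurons and fell by 2.67 ± 0.51 (adjusted p = 0.000801), but its other probe set gave 1.52 and the mean of its probe sets gave -0.57. In the opposite direction, nrv2, a beta subunit of the sodium pump that is part of the junction, was at 11.54 ± 0.31 in surface glia and 9.75 ± 0.34 in neurons and rose by 1.79 ± 0.20 (adjusted p = 2.4e-06). Among junction genes outside the naming rule, given here because they are the core of the complex, Nrx-IV had a difference of -1.63, Cont of -1.53 and cora of 0.22, none of them called, and Nrg rose by 2.49. With probe sets of above-median level only, the number that rose was 4 in place of 8.

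Of 14 basement membrane genes above the controls, 7 rose and 2 fell, with a median of 2.80. SPARC, a collagen-binding glycoprotein, had log2 levels of 11.97, 12.31, 12.73, 11.98 and 12.28 in surface glia and 6.61, 7.89, 6.86, 7.52 and 6.69 in neurons. The groups were separated by 4.08 log2 units, and SPARC rose by 5.14 ± 0.24 (adjusted p = 1.15e-11). vkg, a type IV collagen chain, was at 13.55 ± 0.37 in surface glia and 5.80 ± 1.24 in neurons and rose by 7.75 ± 0.43 (adjusted p = 1.13e-10). LanB1, the laminin beta chain, was at 9.84 ± 1.10 in surface glia and within the controls on all neuron arrays, a log2 difference of at least 5.44. Tig, an integrin ligand of muscle and hemocytes, was at 7.15 ± 0.33 in surface glia and 6.16 ± 0.16 in neurons, a log2 difference of 0.99 ± 0.56 (adjusted p = 0.14). The SD of Tig in whole brain, which enters this SE, was 1.80. The members that fell were loh, a secreted ADAMTS-like protein, at -2.24 ± 0.28, and Mp, a collagen of the multiplexin family named after its value was seen, at -1.80 ± 0.33. vkg is also a hemocyte marker, and 8 of 16 hemocyte genes rose on these arrays, as given below.

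Enzymes that process and secrete matrix were mixed. Of 22 above the controls, 8 rose and 3 fell, with a median of 0.59. stl, a metalloprotease of the ADAMTS family, had log2 levels of 9.88, 10.02, 11.02, 9.12 and 9.55 in surface glia and 4.77, 4.92, 5.53, 4.57 and 5.27 in neurons, and rose by 4.91 ± 0.38 (adjusted p = 1.17e-08). AdamTS-B, of the same family, was at 8.15 ± 1.06 in surface glia and 5.10 ± 0.20 in neurons and rose by 3.05 ± 0.37. Timp, an inhibitor of matrix metalloproteases, was at 12.62 ± 0.25 in surface glia and 10.79 ± 0.21 in neurons and rose by 1.83 ± 0.28. mspo, a spondin, was at 8.16 ± 0.55 in surface glia and 10.51 ± 0.46 in neurons and fell by 2.36 ± 0.29, and the other members that fell were Sec13 at -1.04 ± 0.37 and Cals at -1.01 ± 0.21. The 3 falls became 1 without surface glia replicate 4, without neuron replicate 2 or 3, or after a further quantile normalization. ERp60, a protein disulphide isomerase, had a difference of 0.97 ± 0.23, just under the minimum.

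Cell-matrix adhesion showed risen integrin and linker genes beside fallen ones. Of 20 genes above the controls, 8 rose and 5 fell, the latter a share near the 22.2% of all genes. The median of 0.45 was 0.69 after a further quantile normalization. The integrin alpha chain if had log2 levels of 10.09, 10.06, 11.07, 11.98 and 10.42 in surface glia and 2.61, 4.65, 5.58, 4.66 and 4.27 in neurons. The neuron arrays alone spread over 2.97 log2 units, and if rose by 6.37 ± 0.75 (adjusted p = 4.78e-06). The actin linkers by, which is the fly tensin, and Vinc rose by 3.64 ± 0.46 and 4.90 ± 0.82. rhea, the fly talin, was at 10.78 ± 0.32 in surface glia and 10.28 ± 0.10 in neurons, a difference of 0.50 ± 0.31 (adjusted p = 0.176). Zyx fell by 1.37 ± 0.39, a call that rested on surface glia replicate 4 and was lost without it (-0.85). The other falls were Itgbn at -3.45, Fak at -2.89, Scgalpha at -2.72 and Dg at -1.09, each with overlapping arrays, and without surface glia replicate 4 the 5 falls were 3. Of 14 muscle genes, which also use integrin adhesion, 8 rose on these arrays, and their part in this result was not tested.

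Of the 4 innexins above the controls, out of 7 on the array, 2 rose, with a median of 2.58. Inx2, a gap junction protein needed between the surface glial layers, had log2 levels of 11.09, 11.12, 10.52, 11.76 and 10.42 in surface glia and 5.29, 6.54, 5.81, 5.38 and 5.63 in neurons. Inx2 rose by 5.25 ± 0.28 (adjusted p = 6.34e-11), and ogre, the innexin that pairs with it, rose by 4.33 ± 0.42 (adjusted p = 4.29e-07). Inx6 and Inx3, the others above the controls, had differences of 0.82 ± 0.23 and 0.31 and were not called. Of 29 epithelial cytoskeleton and polarity genes, 10 rose and 4 fell, with a median of 0.30 that was 0.16 on centring and 0.53 after a further quantile normalization. The polarity gene l(2)gl had log2 levels of 6.76, 5.04, 6.67, 4.97 and 5.6 in surface glia and 2.20, 2.32, 2.34, 2.77 and 2.73 in neurons. It was within the controls on all neuron arrays, and the difference was at least 1.41. kibra, a Hippo pathway scaffold, rose by 2.66 ± 0.37. kst, the heavy beta spectrin, was at 6.87 ± 0.52 in surface glia and 5.35 ± 0.19 in neurons and rose by 1.52 ± 0.23. The apical scaffold sdt fell by 1.84 ± 0.31, but its other 5 probe sets ran from -3.49 to 1.08 and the mean of its probe sets lost the call (-0.94). The other falls were crb at -3.35, scrib at -2.02 and alpha-Cat at -1.88. Moe, the fly ezrin-radixin-moesin protein, was at 12.10 ± 0.19 in surface glia and 11.18 ± 0.29 in neurons, a difference of 0.92 ± 0.24.

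Of 27 lipid carrier and droplet genes above the controls, 12 rose and 2 fell, with a median of 0.64 that was 0.99 without surface glia replicate 4. Lsd-2, a perilipin of lipid droplets, had log2 levels of 12.89, 12.65, 13.23, 13.03 and 13.10 in surface glia and 6.34, 4.84, 8.05, 6.35 and 7.19 in neurons. The surface glia arrays agreed within 0.58 log2 units, and Lsd-2 rose by 6.43 ± 0.44 (adjusted p = 2.69e-09). santa-maria, a scavenger receptor for carotenoids, and Acbp2, an acyl-CoA binding protein, were within the controls on all neuron arrays and differed by at least 4.51 and at least 5.49. LpR1, a lipophorin receptor, was at 11.81 ± 0.21 in surface glia and 11.33 ± 0.20 in neurons, a difference of 0.49 ± 0.19, while its other probe set gave 5.43, so that its call depended on the probe set. The members that fell were Apoltp at -1.78 ± 0.34 and FASN1 at -1.30 ± 0.53. A single fall remained in each leave-one-out fit without surface glia replicate 3 or 4 or any of neuron replicates 1 to 4, in a fit of the 10 arrays alone and after a further quantile normalization.

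Of 21 fatty acid oxidation and peroxisome genes above the controls, 11 rose (52.4%) and 2 fell, with a median of 1.16. wal, a subunit of the electron transfer flavoprotein that takes electrons from acyl-CoA dehydrogenases, had log2 levels of 10.89, 10.43, 11.37, 11.30 and 11.13 in surface glia and 7.41, 7.06, 7.41, 7.45 and 7.37 in neurons. The lowest surface glia array was 2.98 log2 units above the highest neuron array, and wal rose by 3.68 ± 0.24 (adjusted p = 1.08e-09). Echs1, the enoyl-CoA hydratase, was at 10.09 ± 0.67 in surface glia and 7.35 ± 0.24 in neurons and rose by 2.74 ± 0.29 (adjusted p = 1.16e-06). scu, a mitochondrial hydroxyacyl-CoA dehydrogenase, was at 8.53 ± 0.52 in surface glia and 6.22 ± 0.17 in neurons and rose by 2.31 ± 0.23 (adjusted p = 5.73e-07). Acox57D-d, a peroxisomal acyl-CoA oxidase, had a difference of 0.88 ± 0.19 and was not called. The falls were the peroxisome assembly genes Pex16, within the controls on all surface glia arrays and at least 1.20 log2 units lower there, and Pex3 at -1.40 ± 0.42. Of 8 markers of fat body, which also oxidises and stores lipid, 6 rose on these arrays, and their part in both lipid results was not tested.

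Detoxification enzymes were the list with the most risen genes. Of 43 above the controls, out of 52 on the array, 24 rose (55.8%) and 1 fell, with a median of 2.13. The cytochrome P450 gene Cyp28d1 had log2 levels of 12.07, 12.33, 12.82, 12.38 and 12.28 in surface glia and 4.73, 5.57, 4.96, 5.59 and 4.82 in neurons. The groups lay at least 6.48 log2 units apart, and Cyp28d1 rose by 7.24 ± 0.26 (adjusted p = 1.7e-13). Cyp4g15, another P450, was at 10.13 ± 0.47 in surface glia and 4.72 ± 0.41 in neurons and rose by 5.42 ± 0.28 (adjusted p = 5.38e-11). Jheh2, a juvenile hormone epoxide hydrolase, was at 10.64 ± 0.82 in surface glia and within the controls on all neuron arrays, a log2 difference of at least 6.25. Cyp4ac1 was the single P450 that fell, from 9.00 ± 0.89 in neurons to 5.51 ± 1.12 in surface glia, and the falls in this list became 3 without surface glia replicate 1. Cyp9b2 was at 6.26 ± 0.83 in surface glia and 5.28 ± 0.12 in neurons, a difference of 0.98 ± 0.33. Of the glutathione transferases, GstS1 rose by 5.27 and GstE9, at -0.10, was not called, both named as examples after their values were seen.

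Of 33 scavenging, engulfment and endocytosis genes above the controls, 12 rose and 5 fell. The median of 0.28 was 0.14 on centring and 0.72 after a further quantile normalization. Tsf1, the iron carrier transferrin, had log2 levels of 8.88, 11.81, 10.28, 9.28 and 10.38 in surface glia and 6.21, 7.16, 6.62, 7.10 and 7.06 in neurons. The surface glia arrays spread over 2.93 log2 units, and Tsf1 rose by 3.30 ± 0.38 (adjusted p = 3.23e-06), with its other probe sets at 4.29 and 0.41. The lysosomal proteases cathD and CtsL1 rose by 1.69 ± 0.20 and 1.73 ± 0.23 from high neuron levels of 11.23 ± 0.18 and 10.72 ± 0.40. Fer2LCH, a ferritin chain, was at 13.36 ± 0.09 in surface glia and 13.13 ± 0.08 in neurons, a difference of 0.23 ± 0.13 (adjusted p = 0.14). The falls were the clathrin adaptor subunits AP-2sigma at -1.52 ± 0.36 and AP-2alpha at -1.28 ± 0.35, with Amnionless, Rabex-5 and Tsf2 at -1.65, -1.30 and -1.66. The falls were 3 without surface glia replicate 4 or after a further quantile normalization, and 2 in a fit of the 10 arrays alone. The hemocyte receptors eater and Sr-CI, members of this list, also rose, by 1.78 and 1.38.

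Of 35 growth factor and hormone signalling genes above the controls, 12 rose (34.3%) and 8 fell (22.9%), the latter a share near the 22.2% of all genes. The median of 0.09 turned to -0.05 when arrays were centred and was 0.17 after a further quantile normalization and 0.21 without surface glia replicate 4. Hnf4, a nuclear receptor of lipid breakdown, had log2 levels of 9.65, 10.66, 11.17, 10.34 and 11.35 in surface glia and 4.89, 4.95, 5.10, 4.98 and 4.23 in neurons. Hnf4 rose by 5.80 ± 0.64 (adjusted p = 1.95e-06). htl, an FGF receptor used in glial proliferation, was at 8.48 ± 1.11 in surface glia and 4.16 ± 0.61 in neurons and rose by 4.32 ± 0.58 (adjusted p = 2.31e-05). aos, a secreted inhibitor of EGF receptor signalling, was at 8.41 ± 1.67 in surface glia and 4.43 ± 0.31 in neurons and rose by 3.98 ± 0.55 (adjusted p = 3.14e-05). ftz-f1, a nuclear receptor, was at 8.96 ± 0.61 in surface glia and 10.38 ± 0.18 in neurons and fell by 1.42 ± 0.26 (adjusted p = 0.000512). Its other probe set gave -0.96 and was not called. sty, an intracellular antagonist of receptor tyrosine kinases, was at 10.59 ± 0.41 in surface glia and 11.10 ± 0.21 in neurons, a difference of -0.51 ± 0.25 (adjusted p = 0.0938). The 8 falls became 5 without surface glia replicate 4 or in a fit of the 10 arrays alone, and 3 after a further quantile normalization.

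Of the 7 glial fate genes above the controls, 3 rose and none fell, with a median of 0.95. repo rose by 5.05 ± 0.38 (adjusted p = 1.1e-08). bnb, a glial gene of the embryo, was at 12.11 ± 0.39 in surface glia and 8.38 ± 0.89 in neurons and rose by 3.73 ± 0.33 (adjusted p = 9.59e-08). apt, a transcription factor, was at 6.26 ± 1.33 in surface glia and 4.11 ± 0.42 in neurons and rose by 2.16 ± 0.45 (adjusted p = 0.00159). The transcription factor Ets98B, with a difference of 0.95 ± 0.23, was not called.

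Of 34 active zone and release genes above the controls, none rose and 16 fell, with a median of -1.03. Sytalpha, a synaptotagmin, had log2 levels of 6.64, 5.74, 6.01, 5.63 and 5.00 in surface glia and 9.12, 8.47, 9.01, 7.87 and 8.98 in neurons. The groups were separated by 1.23 log2 units, and Sytalpha fell by 2.89 ± 0.31 (adjusted p = 1.72e-06). Nlg1, a neuroligin, was within the controls on all surface glia arrays and was at 5.37 ± 0.53 in neurons, a log2 difference of at least 0.14 in size. Tomosyn, an inhibitor of vesicle priming, was at 9.26 ± 0.31 in surface glia and 10.41 ± 0.22 in neurons and fell by 1.16 ± 0.24, a call lost after a further quantile normalization (-0.87). cpx, the complexin that clamps SNARE complexes, was at 12.85 ± 0.37 in surface glia and 13.56 ± 0.17 in neurons, a difference of -0.70 ± 0.18. Its other probe set gave -1.30 and was not called, while the mean of its probe sets was called (-1.0). Of 20 vesicle recycling genes, none rose and 7 fell, with a median of -0.90. VGlut, the vesicular glutamate transporter, had log2 levels of 5.27, 4.94, 4.66, 5.11 and 4.21 in surface glia and 7.90, 7.54, 7.52, 8.76 and 7.30 in neurons on the probe set used, but its other probe set gave a difference of 0.17. On the first, VGlut fell by 2.97 ± 0.37 (adjusted p = 1.19e-05). lap, a clathrin adaptor of the synapse, fell by 3.05 ± 0.85, with surface glia levels from 5.09 in replicate 4 to 11.38 in replicate 2. The vesicular transporter prt was within the controls on all surface glia arrays, a difference of at least 0.66 in size. fwe, a calcium channel of synaptic vesicles, was at 12.78 ± 0.39 in surface glia and 13.42 ± 0.09 in neurons, a difference of -0.64 ± 0.17. The other probe sets of fwe gave -1.11 and -1.29, both called, and the mean of its probe sets was called (-1.01). The 7 falls became 3 without surface glia replicate 4 and 4 without neuron replicate 1 or 3 or after a further quantile normalization.

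Transmitter synthesis and uptake genes fell in 9 of 17 cases and rose in none, with a median of -1.10. DAT, the dopamine transporter, had log2 levels of 8.28, 8.72, 5.78, 8.78 and 6.21 in surface glia and 10.23, 10.46, 10.25, 10.02 and 10.46 in neurons. The surface glia arrays spread over 3.0 log2 units, and DAT fell by 2.73 ± 0.50 (adjusted p = 0.000645). Ace, which breaks down acetylcholine, was at 9.52 ± 1.02 in surface glia and 11.10 ± 0.19 in neurons and fell by 1.58 ± 0.34 (adjusted p = 0.0023). ChT, the choline carrier, was at 9.42 ± 1.97 in surface glia and 11.82 ± 0.05 in neurons and fell by 2.40 ± 0.66 (adjusted p = 0.00936). Gs2, the glutamine synthetase of glia, ran the other way without being called, at 12.81 ± 0.13 in surface glia and 12.08 ± 0.48 in neurons, a difference of 0.74 ± 0.22. The 9 falls became 5 without surface glia replicate 4 or 5 or without neuron replicate 1 or 3, and 4 after a further quantile normalization.

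The nicotinic list held 9 receptor subunits above the controls, the modulator qvr, the chaperone RIC-3 and rtp, which encodes no subunit. Of these 12, 7 fell and 1 rose, with a median of -1.45. nAChRbeta1 had log2 levels of 12.47, 11.29, 8.82, 10.76 and 10.90 in surface glia and 12.93, 12.98, 12.76, 12.98 and 12.86 in neurons. Surface glia replicate 3 was lowest and replicate 1 came within 0.29 of the lowest neuron array, and nAChRbeta1 fell by 2.05 ± 0.43 (adjusted p = 0.0017). Its other probe set gave -0.81 and was not called. nAChRalpha5 was at 9.46 ± 0.89 in surface glia and 11.03 ± 0.10 in neurons and nAChRbeta2 at 7.47 ± 1.57 in surface glia and 9.87 ± 0.28 in neurons. Their log2 differences were -1.57 ± 0.34 and -2.40 ± 0.56. nAChRbeta3 was the subunit that rose, by 2.10 ± 0.41, from a neuron level of 4.39 ± 0.24 that was above the controls on 2 of 5 arrays, and rtp had a difference of 0.79 ± 0.26 and was not called.

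Of 20 glutamate, GABA, histamine and muscarinic receptor genes, 13 fell (65.0%) and 1 rose, with a median of -1.80. The metabotropic glutamate receptor mGluR had log2 levels of 9.82, 9.56, 7.09, 9.03 and 7.61 in surface glia and 10.87, 10.66, 10.96, 10.79 and 10.58 in neurons. The neuron arrays agreed within 0.38 log2 units, and mGluR fell by 2.15 ± 0.39 (adjusted p = 0.000528). CG8916, a GABA receptor-like chloride channel gene, was at 6.08 ± 0.72 in surface glia and 8.07 ± 0.70 in neurons and fell by 1.99 ± 0.39. mAChR-B, a muscarinic receptor, was at 6.91 ± 2.23 in surface glia and 10.20 ± 0.26 in neurons and fell by 3.29 ± 0.71. GluRIIA, a glutamate receptor subunit of the body-wall muscle synapse, rose by 1.10 ± 0.22 near the level of the controls, and the call was lost without surface glia replicate 4 (0.91), on centring (0.96) and on further quantile normalization (0.87). mAChR-C had a difference of 0.62 ± 0.27 and was not called.

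Amine receptors fell in 8 of 15 cases and rose in none, with a median of -1.06 that was -0.61 after a further quantile normalization. TyrR, a tyramine receptor, had log2 levels of 4.98, 4.07, 5.10, 4.41 and 5.21 in surface glia and 7.69, 6.46, 7.45, 7.23 and 5.86 in neurons. The nearest arrays of the groups lay 0.65 log2 units apart, and TyrR fell by 2.18 ± 0.34 (adjusted p = 0.000148). The serotonin receptor 5-HT1A was at 8.31 ± 1.74 in surface glia and 11.46 ± 0.25 in neurons and fell by 3.14 ± 0.65 (adjusted p = 0.00159). The dopamine receptor Dop1R1 was at 9.66 ± 1.36 in surface glia and 11.73 ± 0.25 in neurons and fell by 2.08 ± 0.46 (adjusted p = 0.00269). Octalpha2R, an octopamine receptor, was at 7.77 ± 0.47 in surface glia and 6.89 ± 0.26 in neurons, a difference of 0.88 ± 0.21. Of 20 peptide and hormone receptors, 7 fell (35.0%) and 2 rose (10.0%), the latter near the 12.3% of all genes, with a median of -0.64. Lgr3, a relaxin-like peptide receptor, had log2 levels of 4.91, 6.32, 4.42, 6.53 and 5.18 in surface glia and 8.96, 8.85, 7.39, 8.46 and 8.05 in neurons, and fell by 2.87 ± 0.46 (adjusted p = 0.000163). SIFaR fell by 3.91 ± 0.72 on the probe set used and had a difference of -0.58 on its other probe set. Dh44-R1 was at 5.87 ± 0.96 in surface glia and 8.08 ± 0.68 in neurons and fell by 2.21 ± 0.41. The receptors that rose were Dh44-R2, by 1.95 ± 0.46, and CCHa2-R, by 1.07 ± 0.29. CCHa2-R lost its call without surface glia replicate 4 (0.86) or 5 (0.99) or neuron replicate 3 (0.98) and with each array centred (0.93), and 1 rise was left in each of these. Dh31-R had a difference of 0.81 ± 0.28 on the probe set used, and its other probe set fell by 2.08 ± 0.78.

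Neuropeptide genes were spread in both directions. Of 35 above the controls, 7 fell (20.0%) and 3 rose (8.57%), shares near those of all genes, with a median of 0.31 that was 0.15 without surface glia replicate 4, 0.18 on centring and 0.09 after a further quantile normalization. amon, the prohormone convertase that cuts neuropeptide precursors, had log2 levels of 11.36, 11.86, 10.65, 7.43 and 8.67 in surface glia and 13.04, 13.01, 12.83, 12.68 and 12.66 in neurons. Surface glia replicates 4 and 5 were lowest, and amon fell by 2.85 ± 0.61 (adjusted p = 0.00199). The peptide gene sNPF fell by 2.75 ± 0.89 (adjusted p = 0.0193), with surface glia replicate 4 at 3.52 and the other 4 between 9.30 and 10.53, and it lost its call in a fit of the 10 arrays alone (adjusted p = 0.0785). ITP, the ion transport peptide, had a surface glia level of 11.80 ± 0.29 against 5.88 ± 0.09 in neurons and rose by 5.92 ± 0.28 (adjusted p = 1.05e-11). The other peptide precursors that rose were Nplp2, by 4.64 ± 0.62, and Nplp3, which was within the controls on all neuron arrays and differed by at least 7.76. Pal2, an enzyme of peptide amidation, was at 12.03 ± 0.52 in surface glia and 12.73 ± 0.10 in neurons, a difference of -0.70 ± 0.21. Without neuron replicate 2 the 7 falls were 4.

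Potassium channels fell in 12 of 23 cases and rose in 2, with a median of -1.24. Elk, a voltage-gated channel of the ether-a-go-go family, had log2 levels of 6.95, 7.30, 5.10, 7.24 and 6.33 in surface glia and 10.74, 9.95, 10.36, 9.09 and 9.94 in neurons. The groups were separated by 1.79 log2 units, and Elk fell by 3.43 ± 0.35 (adjusted p = 9.04e-07). The calcium-activated channel slo was at 8.66 ± 0.88 in surface glia and 10.51 ± 0.12 in neurons and fell by 1.85 ± 0.32 (adjusted p = 0.000315). Shal, which carries the fast transient current, was at 7.44 ± 1.20 in surface glia and 9.88 ± 0.38 in neurons and fell by 2.44 ± 0.42 (adjusted p = 0.000351). The inward rectifier Irk2 rose, from 5.34 ± 0.54 in neurons to 9.00 ± 0.93 in surface glia, a difference of 3.66 ± 0.41 (adjusted p = 2.63e-06). The inward rectifier Irk1 was at 6.34 ± 0.69 in surface glia and 5.35 ± 0.24 in neurons, a difference of 0.99 ± 0.29. The mean of its probe sets was called (1.26). The potassium leak channel sand, within the controls on all neuron arrays, differed by at least 1.04.

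Of 41 sodium, calcium and other channel and ion transport genes, 13 fell (31.7%) and 5 rose (12.2%), the latter near the 12.3% of all genes. The median was -0.55, and it was -0.36 after a further quantile normalization. stj, an auxiliary subunit of calcium channels, had log2 levels of 11.81, 10.80, 10.19, 8.93 and 10.71 in surface glia and 11.97, 12.01, 12.24, 12.26 and 12.04 in neurons. Surface glia replicate 1 came within 0.16 of the lowest neuron array, and stj fell by 1.62 ± 0.34 (adjusted p = 0.00191). Ca-alpha1D and cac, the pore subunits of L-type and presynaptic calcium channels, fell, with differences of -1.82 ± 0.42 and -1.41 ± 0.33, and the other probe set of cac gave 0.68. NKCC, a sodium-potassium-chloride cotransporter, was at 12.58 ± 0.46 in surface glia and 6.46 ± 0.48 in neurons and rose by 6.11 ± 0.34 (adjusted p = 1.3e-10). The other rises were pyx by 3.91 ± 0.69, Orai by 1.42 ± 0.37, trp by 1.27 ± 0.26 and ClC-a by 1.02 ± 0.26, named for their small number. PMCA, the plasma membrane calcium pump, was at 11.79 ± 0.52 in surface glia and 12.55 ± 0.11 in neurons, a difference of -0.75 ± 0.27, while its other probe sets were lower in surface glia, at -2.17 ± 0.67 and -2.84 ± 0.67.

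The Dpr and DIP families, immunoglobulin-domain proteins that bind each other between synaptic partners, fell in 20 of 30 cases (66.7%) and rose in none, with the lowest median of the 29 lists, -1.98. dpr20 had log2 levels of 9.61, 5.45, 6.94, 5.35 and 6.84 in surface glia and 9.97, 10.39, 10.35, 9.97 and 10.17 in neurons. Surface glia replicate 1, at 9.61, was 0.36 below the lowest neuron array and the other 4 lay between 5.35 and 6.94, and dpr20 fell by 3.33 ± 0.55 (adjusted p = 0.00022). dpr5 was at 7.69 ± 0.93 in surface glia and 9.78 ± 0.36 in neurons and fell by 2.10 ± 0.36 (adjusted p = 0.000348). dpr2 fell by 1.62 ± 0.28, but its other probe sets gave -0.02, -0.02 and -0.98 and the mean of its probe sets gave -0.66. DIP-iota was at 6.01 ± 0.37 in surface glia and 5.38 ± 0.11 in neurons, a difference of 0.63 ± 0.24 in the other direction that was not called.

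Among 69 axon guidance and wiring genes, 32 fell (46.4%) and 5 rose, with a median of -1.23. side-II, of the family that binds the beat proteins, had log2 levels of 5.88, 6.37, 4.23, 5.83 and 4.72 in surface glia and 10.14, 10.09, 9.73, 10.33 and 9.91 in neurons. The groups were separated by 3.36 log2 units on this probe set, and side-II fell by 4.63 ± 0.52 (adjusted p = 2.84e-06), with its other 5 probe sets from -2.79 to 0.30. side-VII, of the same family, was at 9.71 ± 0.49 in surface glia and 11.40 ± 0.09 in neurons and fell by 1.69 ± 0.20 (adjusted p = 6.89e-06). otk, a co-receptor in guidance signalling, was at 5.59 ± 0.72 in surface glia and 8.05 ± 0.27 in neurons and fell by 2.45 ± 0.33 (adjusted p = 2.89e-05). bdl, an immunoglobulin protein of axons and glia in the fly eye, rose by 2.74 ± 0.23 (adjusted p = 3.53e-08). The other rises were beat-IIIc by 1.62 ± 0.27, the repellent sli by 1.22 ± 0.37, and Tollo and Sema5c, which were within the controls on all neuron arrays and differed by at least 3.39 and at least 2.28. hig, a protein of the synaptic cleft, was at 11.74 ± 0.43 in surface glia and 12.67 ± 0.11 in neurons, a difference of -0.93 ± 0.18, just under the minimum.

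Axonal cytoskeleton and transport genes fell in 18 of 37 cases and rose in 1, with a median of -1.04. Aplip1, a kinesin adaptor, had log2 levels of 10.12, 11.02, 9.33, 8.75 and 9.04 in surface glia and 11.64, 11.87, 11.60, 11.59 and 11.44 in neurons. Aplip1 fell by 1.98 ± 0.30 (adjusted p = 8.73e-05). The microtubule-associated protein Map60 was at 6.90 ± 1.04 in surface glia and 8.74 ± 0.20 in neurons and fell by 1.83 ± 0.38. Tbce, a tubulin-folding cofactor, was at 5.37 ± 0.37 in surface glia and 6.46 ± 0.35 in neurons and fell by 1.10 ± 0.24, a call lost without neuron replicate 2 (-0.99). Dys, the fly dystrophin, rose by 1.46 ± 0.39 on the probe set used, while its other probe sets gave 1.51, 1.03, 0.82 and -1.49. Sap47, a synapse-associated protein, was at 11.57 ± 0.44 in surface glia and 12.27 ± 0.15 in neurons, a difference of -0.70 ± 0.21. Its other probe set gave -1.27 and was called. The 18 falls became 10 without neuron replicate 2, and 11 without neuron replicate 1 or 3, without surface glia replicate 5 or after a further quantile normalization.

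Second-messenger genes of the cAMP, calcium and cyclic nucleotide pathways fell in 25 of 43 cases (58.1%) and rose in 4, with a median of -1.20. Rgk2, a small GTPase of the family that inhibits calcium channels, had log2 levels of 5.45, 5.43, 5.16, 5.61 and 5.16 in surface glia and 7.25, 6.78, 8.28, 7.23 and 6.94 in neurons. Neurons were higher by 1.17 log2 units at the nearest arrays, and Rgk2 fell by 1.93 ± 0.24 (adjusted p = 1.01e-05), while its other probe set gave 0.43. Galphas, the stimulatory G protein subunit, was at 10.35 ± 0.18 in surface glia and 11.45 ± 0.13 in neurons and fell by 1.10 ± 0.17, a call lost after a further quantile normalization (-0.91). Plc21C, a phospholipase C, was at 10.74 ± 0.63 in surface glia and 12.70 ± 0.21 in neurons and fell by 1.96 ± 0.34. for, the cGMP-dependent protein kinase, was within the controls on all neuron arrays and at 9.26 ± 0.90 in surface glia, a log2 difference of at least 4.86. The other rises were Arr2, Gbeta76C and ACXD, at 1.41, 1.17 and 1.10, and 1 of the 4 rises was left without surface glia replicate 4. The casein kinase gish was at 11.32 ± 0.50 in surface glia and 12.07 ± 0.11 in neurons, a difference of -0.75 ± 0.24. After a further quantile normalization the 25 falls were 15.

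Neuronal transcription factors and RNA-binding proteins fell in 30 of 65 cases (46.2%) and rose in 3, with a median of -1.02. Ptx1, a homeodomain factor, had log2 levels of 5.05, 3.0, 4.04, 3.98 and 4.91 in surface glia and 8.63, 8.74, 8.46, 8.53 and 8.03 in neurons. The groups were separated by 2.98 log2 units, and Ptx1 fell by 4.28 ± 0.42 (adjusted p = 5.22e-07), while its other probe set gave 0.38. The POU factor acj6 of olfactory neurons was at 6.22 ± 1.16 in surface glia and 9.36 ± 0.46 in neurons and fell by 3.15 ± 0.42 (adjusted p = 2.02e-05). tup, the fly islet, was at 5.34 ± 1.25 in surface glia and 8.67 ± 0.47 in neurons and fell by 3.33 ± 0.45 (adjusted p = 2.74e-05). The 3 rises were ind by 2.13 ± 0.60, Poxm by 1.13 ± 0.26 and al by 1.01 ± 0.26, and 1 of them was left on centring each array. The other probe set of Poxm gave 0.70 and was not called. pros, a homeodomain factor of neurons and some glia, was at 12.60 ± 0.49 in surface glia and 13.18 ± 0.05 in neurons, a difference of -0.58 ± 0.20.

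Whether the neuronal genes stand below genes of the same abundance was described with the whole-brain arrays, which are in neither group. Where the whole-brain log2 level was under 6, the median difference was 0.64 for 54 neuronal genes and 0.67 for all 2533 genes. Between 6 and 8 it was -0.60 for 65 neuronal genes and -0.31 for all, and between 8 and 10 it was -1.15 for 116 neuronal genes and -0.78 for all. From 10 to 12 it was -1.49 for 169 neuronal genes and -0.80 for all, and from 12 upward it was -1.07 for 70 neuronal genes and -0.58 for all. Differences thus ran below 0 among abundant genes in general, and the neuronal medians were lower than those of all genes in the 4 upper classes. The share of neuronal genes that fell was 11.1%, 40.0%, 48.3%, 58.6% and 51.4% from the lowest class to the highest, against 5.05%, 23.9%, 31.9%, 35.0% and 28.8% of all genes. The barrier medians in the same order were 1.21, 1.22, 0.06, 0.22 and 0.17, the last over 12 genes.

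**Figure D3:**
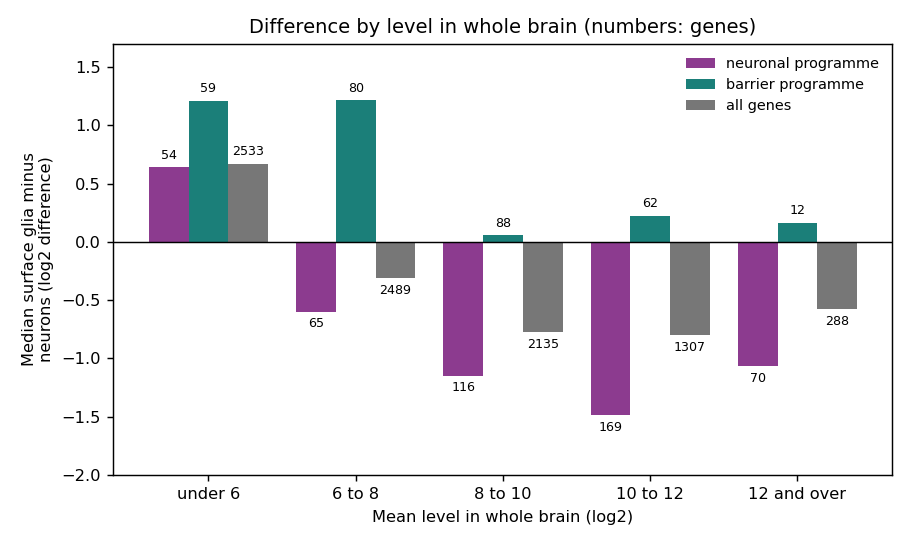
Median log2 difference, surface glia minus neurons (y axis), of neuronal (purple), barrier (green) and all genes (grey) in 5 classes of mean log2 level in whole brain (x axis), with the number of genes at each bar. Neuronal bars run from 0.64 in the lowest class to -1.49 in the class from 10 to 12, where that of all genes is -0.80.

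The lists also differed in gene length, counted with introns from the reference gene table, which held a length for 99.8% of the neuronal, 99.7% of the barrier and 99.4% of all genes above the controls. The median length was 17.7 kb for neuronal genes and 5.87 kb for barrier genes. Over all genes above the controls it was 4.05 kb for those that fell, 2.83 kb for those that rose and 2.30 kb for those not called. These are descriptions, and the part of length in the differences was not tested.

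Of 23 glycolysis and trehalose genes, 9 rose and 1 fell, with a median of 0.93. Pdk, the kinase that switches off pyruvate dehydrogenase, was at 11.59 ± 0.57 in surface glia and 7.59 ± 0.53 in neurons and rose by 4.0 ± 0.29 (adjusted p = 6.47e-09). Sln, a monocarboxylate carrier, fell by 1.95 ± 0.68, with surface glia replicate 4 at 5.41, and lost its call without that array (-1.0), in a fit of the 10 arrays alone and after a further quantile normalization. Of 48 oxidative phosphorylation genes none was called in either direction, with a median of 0.13 that turned to -0.01 on centring; 3 were higher at an adjusted p under 0.05 with no minimum difference. Without surface glia replicate 4, 1 was lower, and 4 were higher after a further quantile normalization. Of 29 ribosomal protein genes, 11 rose and none fell, with a median of 0.92, and 18 rose after a further quantile normalization. RpL3 rose by 1.29 ± 0.17 on the probe set used, but its other probe sets gave 0.25 and -1.86, and their mean turned the direction (-0.11).

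Of 16 proton pump subunits, 2 rose (12.5%), a share near the 12.3% of all genes, and 1 fell (6.25%). Vha100-2 rose from 4.58 ± 0.61 to 9.88 ± 0.62, VhaM9.7-b rose by 1.42 ± 0.38, and VhaM9.7-a fell by 2.67 ± 0.71 with surface glia arrays from 4.36 to 9.92. Of 31 immune genes, 12 rose and 4 fell, with a median of 0.98. nec, a serpin of the Toll pathway, was at 11.14 ± 0.64 in surface glia and 4.59 ± 0.23 in neurons and rose by 6.56 ± 0.34 (adjusted p = 4.07e-11). cact, the inhibitor of the same pathway, fell by 1.39 ± 0.35, but its other probe set rose by 1.68 ± 0.64 and the mean of both turned the direction (0.14). The other falls were Tl at -2.10, Dif at -1.79 and PGRP-LE at -1.5, and the 4 falls were 2 in a fit of the 10 arrays alone or after a further quantile normalization. Of 15 clock genes, 4 rose (26.7%) and 3 fell (20.0%), the latter a share near the 22.2% of all genes. The 3 falls became 1 without surface glia replicate 4 or neuron replicate 1 or 4, or after a further quantile normalization. Clk, the clock activator, had surface glia levels from 6.12 to 10.87 and rose by 4.92 ± 0.82, with tim, vri and cry also risen, by 2.62, 2.79 and 1.34.

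Heat and dissociation stress genes were counted in a list of their own. The sorts differed in cell type and in the time and speed of dissociation together, and the part of dissociation in this list was not tested. Of its 23 genes above the controls, 1 rose and 3 fell. Its mean log2 level was 9.7 to 10.6 on the surface glia arrays and 10.3 to 10.5 on the neuron arrays, so that the groups overlapped. Arc1, which encodes a capsid-like protein, was at 14.07 ± 0.13 in surface glia and 10.36 ± 1.12 in neurons and rose by 3.71 ± 0.71 (adjusted p = 0.000873). The heat shock factor Hsf fell by 1.82 ± 0.58, a call lost without surface glia replicate 4 (-1.53, adjusted p = 0.0537) and after a further quantile normalization (-1.5, adjusted p = 0.0502). The other falls were the small heat shock gene CG4461 at -5.35 ± 0.89 and puc at -1.21 ± 0.41. The 3 falls were 1 in both of these settings.

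Some markers of other cell types were among the genes that rose. Of 16 hemocyte genes above the controls, 8 rose and none fell, among them NimC1 by 2.61, and Hml and srp, within the controls on all neuron arrays, by at least 1.84 and at least 1.92. With a level above the controls asked on all 5 arrays, 5 hemocyte genes rose, and 4 with probe sets of above-median level only. The mean log2 level of the list was 7.88 to 8.52 in surface glia, 6.08 to 6.26 in neurons and 6.22 to 6.84 in whole brain. Of 8 fat body genes, 6 rose and 1 fell, with Yp1, a yolk protein made by fat body, at 12.69 ± 0.41 in surface glia and 7.27 ± 0.30 in neurons. The fat body mean was 8.32 to 10.47 in surface glia, highest in replicate 3, against 6.53 to 6.91 in neurons and 7.05 to 7.85 in whole brain. Of 14 muscle genes, 8 rose and none fell, with a mean of 7.55 to 10.27 in surface glia, again highest in replicate 3, and 6.63 to 6.97 in neurons. TpnC73F, a troponin C of flight and leg muscle, was within the controls on all neuron arrays and differed by at least 3.10, while its other probe set gave -0.12. Only 4 muscle genes rose in a fit of the 10 arrays alone. These 3 lists hold genes that barrier cells may also express, vkg and Ppn among them, and the part of such cells in the barrier results was not tested.

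Other glia and cells of the head were also represented. All 5 cortex glia genes above the controls rose, with a mean of 8.99 to 9.16 in surface glia and 5.48 to 5.80 in neurons, and 2 of them, Cyp4g15 and Inx2, are members of barrier lists. Of 10 astrocyte-like and ensheathing glia genes, 4 rose (40.0%) and 2 fell (20.0%), the latter near the 22.2% of all genes. The list mean of 8.35 to 8.98 in surface glia overlapped the 7.74 to 8.45 of neurons. Eaat2, a transporter of aspartate and taurine, was 1 of the 2 that fell, at -2.30 ± 0.90, with surface glia replicate 4 at 3.20 and the others from 8.45 to 10.60. This call was lost when any neuron array or surface glia replicate 4 or 5 was left out, in a fit of the 10 arrays alone and after a further quantile normalization. The ebony gene e was the other. Of 8 tracheal genes, 2 rose, with Cht2 risen by 2.49 ± 0.28, and trn fell by 3.88 ± 1.25 with surface glia levels from 3.04 to 10.41, a call lost without replicate 4 (-2.76) or 5 (-3.02). The tracheal means, 6.02 to 6.51 and 5.84 to 6.21, overlapped. Of 8 photoreceptor and eye genes, 5 rose, by 1.27 to 2.77, and eys fell by 2.20 ± 0.51. The other probe sets of eys gave -1.48, which was called, and -0.55 and -0.19, which were not. The mean of the 8 genes was 7.00 to 7.49 in surface glia and 6.32 to 6.57 in neurons, and trp and Arr2 are also members of neuronal lists.

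**Figure D4:**
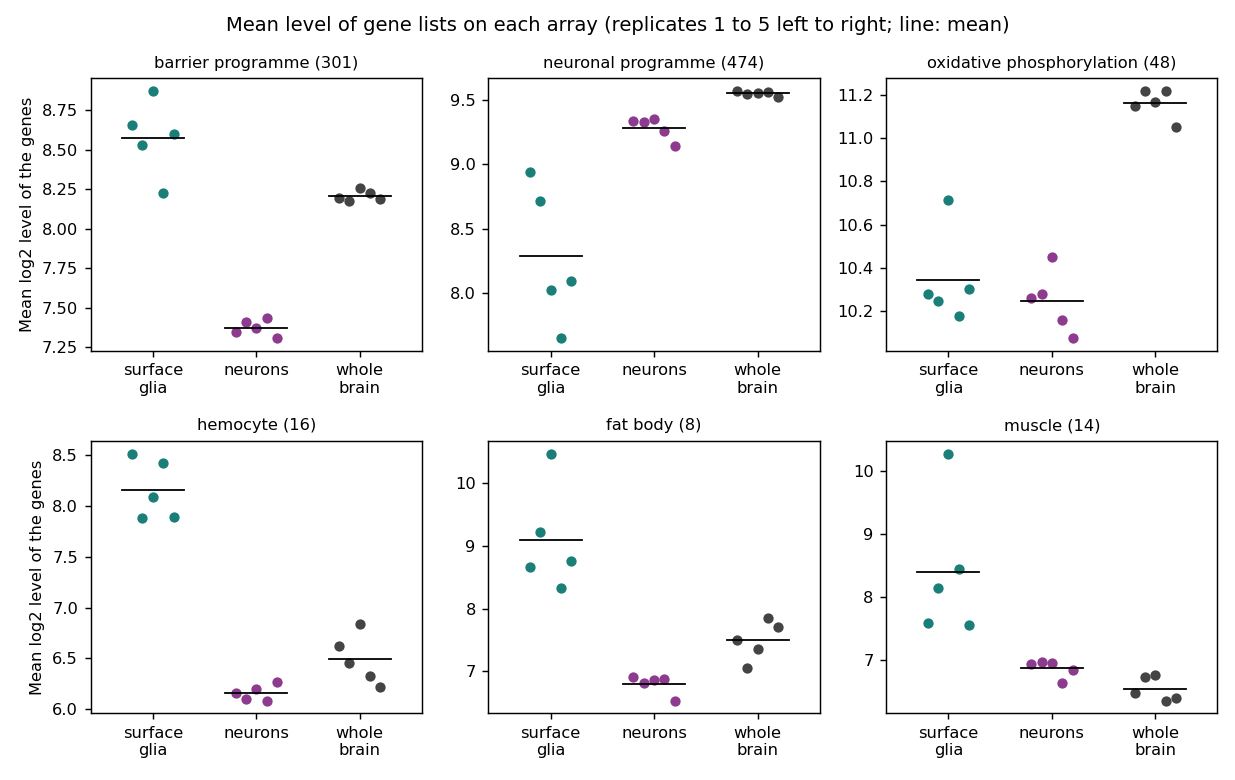
Mean log2 level (y axis, a separate scale in each panel) of 6 gene lists on each array of surface glia, neurons and whole brain, with replicates 1 to 5 from left to right and the group mean as a line. The barrier genes of surface glia lie at 8.23 to 8.87 and those of neurons at 7.31 to 7.43, and surface glia replicate 3 stands above the other arrays for fat body and muscle genes.

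**Figure D5:**
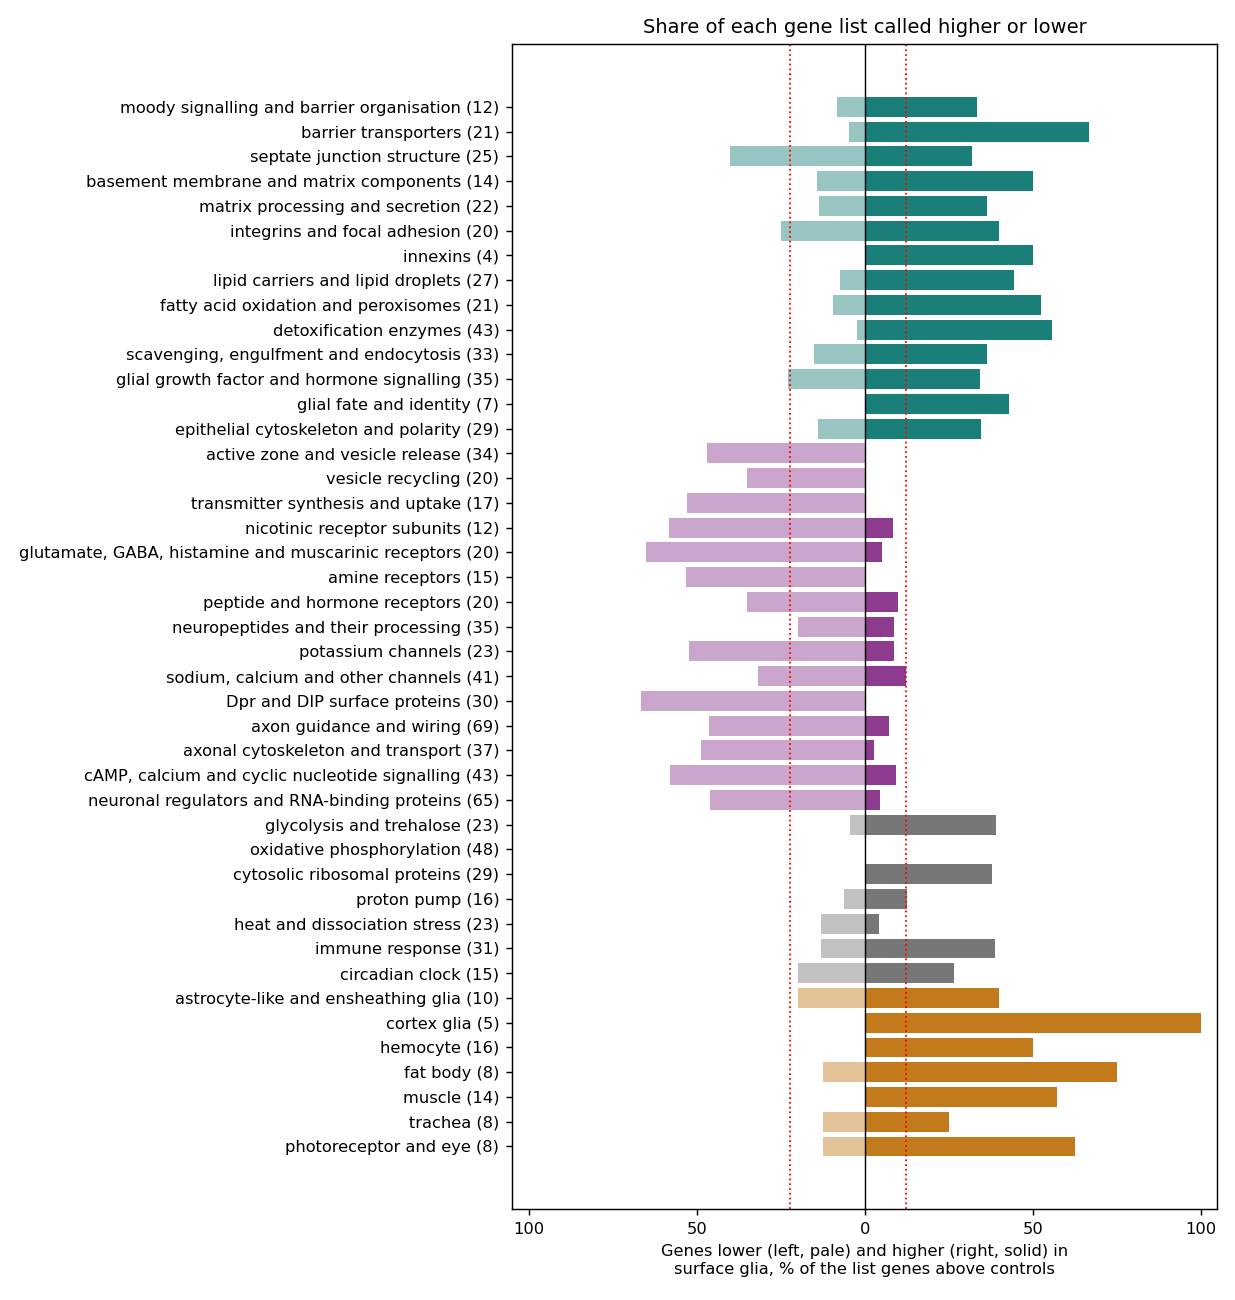
Share of the genes above the controls in each list (number in parentheses) that were lower in surface glia (left, pale) or higher (right, solid), in percent, for barrier (green), neuronal (purple), shared (grey) and other-cell lists (orange). Dotted lines mark the shares of all genes, 22.2% lower and 12.3% higher. Detoxification genes reach 55.8% higher, and the Dpr and DIP proteins 66.7% lower.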

How the data were processed

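RNA of GFP-sorted cells and of whole brains was amplified, labelled with biotin and hybridised to Affymetrix Drosophila arrays, per the labels' protocols. The authors deposited log2 values per probe set, and RMA, affy and limma are named without versions in the submitters' processing notes. That the values are on a log2 scale follows from RMA and was checked against their range, and no scanner files were analysed here.

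Of the probe sets, 18769 remained after 183 control probe sets were left out. The probe annotation gave 1 current symbol for 13647 of them, several for 402 and none for 4720. A gene with several probe sets, 1094 of 11982, was represented by the one with the highest mean over the arrays. Groups were those of the labels, 5 arrays each, and the surface glia and neuron means were compared in a limma 3.58.1 fit of all 20 arrays in R 4.3.3, with 1 mean for each of the 4 groups, empirical Bayes moderation and Benjamini-Hochberg adjustment over all probe sets. Precision is limited by having 5 arrays a group. The fit was tested on simulated data first.

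Genes were described in 43 lists, 29 of them barrier or neuronal, 7 shared and 7 of other cells. The members and lists were chosen with earlier results of these data known. From each barrier and neuronal list the text names, among genes whose arrays did not overlap, the 3 called genes with the largest moderated statistic in the majority direction, the 1 largest in the other and the uncalled gene of highest mean, and from each other list 1 called gene in each direction. The 8 largest rises and falls of the whole comparison were counted but not named by this rule, which named 153 genes with the markers. Genes named outside it were chosen after their values were seen.

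Alternatives were a further quantile normalization, centring, array weights by group, the 10 arrays alone, level filters, the mean of probe sets, no minimum difference, the replicate number as a block and leaving out each array. No sequences were used here.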

Additional observations from a re-analysis of the deposited data

Results flagged for a closer look

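Among the 153 named genes, each group of 5 arrays was looked at for an array set apart from the other 4 by most of the group's range. This gave 18 arrays in 306 groups, and chance gives about 1 in 20 groups. Of the 18, 8 were in surface glia and 5 of those were replicate 4, which had the lowest correlation with its group.

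In surface glia replicate 4, log2 levels stood below the other 4 arrays for Galphas at 10.03, Sln at 5.41, Zyx at 8.26, by at 6.81 and sNPF at 3.52. In surface glia replicate 2, Dys stood above at 11.91 and htl below at 6.52, and in replicate 1 CG8916 stood above at 7.29. Among neurons, replicate 2 stood apart for 5-HT1A at 11.89, aos at 4.97 and pros at 13.27, all highest, and for wal at 7.06, lowest. Neuron replicate 5 stood apart for ERp60 at 9.92 and Hnf4 at 4.23, both lowest, and for Eaat2 at 10.87, highest. Neuron replicate 4 stood apart for Jheh2 at 4.48, highest, and cact at 10.62, lowest, and neuron replicate 3 for fwe at 13.58, highest.

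Among the control probe sets that entered no test, AFFX-Dm-AF292560-1_s_at had a mean log2 level of 10.41 ± 0.84 (SD, n = 5) in surface glia, 11.16 ± 0.50 in neurons and 1.89 ± 0.10 in whole brain. AFFX-Dm-M62653-1_s_at had 11.72 ± 0.48, 12.70 ± 0.26 and 2.25 ± 0.11. Both were high in the sorted cells and low in whole brain, and what they measure is not given in the sources used here.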

How the results depend on the processing

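The direction of both programmes, barrier genes more often higher and neuronal genes more often lower, was seen in each alternative run. The barrier genes that rose numbered 129 and lay between 112 and 147 across the settings that kept all arrays, apart from the one limited to probe sets above the median level, and the neuronal genes that fell numbered 223 and lay between 160 and 257. With only probe sets above the median level, 875 probe sets were higher in surface glia in place of 1963, and 2441 were lower in place of 2816. In this setting, which tested fewer probe sets, 17 neuronal genes rose in place of 26. With no minimum difference 5934 probe sets were higher and 3277 lower, and 47 neuronal genes rose. Centring each array on its median gave 1351 probe sets higher and 3108 lower, a further quantile normalization 1704 and 2002, and the 10 arrays alone 1718 and 2366, against 1963 and 2816. Leaving out each array in turn gave 1446 to 2840 probe sets higher and 2345 to 3067 lower. Over the same fits 125 to 134 barrier genes rose and 31 to 48 fell, and 20 to 29 neuronal genes rose and 177 to 248 fell. With array weights by group 1957 were higher and 2808 lower. The mean of probe sets turned the direction of RpL3 (-0.11) and cact (0.14), whose probe sets disagree. Of 123 named genes with a call, 102 kept it under all 18 alternatives with gene values, 19 lost it under at least 1 and the 2 above turned, and 8 lost it without surface glia replicate 4.

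Same-numbered arrays of the cell types did not deviate together, with correlations of 0.062, 0.017, 0.032, 0.029 and 0.059 for numbers 1 to 5, so the replicate numbers do not pair the samples. With the replicate number as a block, 1984 probe sets were higher and 2925 lower, 129 barrier genes rose and 43 fell, and 26 neuronal genes rose and 228 fell. Signal over background limits the dimmest genes, 234 of which were above the controls in 1 cell type and within them on all arrays of the other. The cause of these changes was not tested.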

Other observations

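Genes that rose in surface glia over neurons differed in how they compared with whole brain. The whole-brain arrays were not of sorted cells and entered the fit only in the spread of a probe set. Cyp28d1 had a mean log2 level of 12.38 in surface glia and 12.52 in whole brain, and Inx2 had 10.98 and 11.49. NKCC, in contrast, had 12.58 in surface glia, 7.50 in whole brain and 6.46 in neurons. LanB1 had 9.84 in surface glia and 3.80 in whole brain, and stl had 9.92 and 4.67. Among genes that fell, Tomosyn had 9.26 in surface glia, 10.41 in neurons and 13.13 in whole brain, and Sytalpha had 5.80, 8.69 and 10.74. AP-2sigma had 6.57, 8.10 and 11.09 in the same order. These are levels side by side with no test.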
